A study of Mus musculus with 40 samples.

Results

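Neutrophils and epithelial cells sorted from the same kind of colon tumor were compared, with the question of which transcripts in the neutrophil libraries belong to neutrophils and which follow the epithelial signal that these libraries also hold. The members are 8 of the 40 RNA-seq libraries of the series, 4 of tumor neutrophils (T_CG) and 4 of tumor epithelial cells (T_CE), taken by their group labels, and every comparison was made with and without T_CG replicate 1. The table held 45706 genes, of which 16327 passed the filter on low counts with all 8 libraries and 16909 with 7.

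All tumor mice carried the transgene Cdx2CreERT2 - Apc fl/fl, a tamoxifen-inducible Cre recombinase driven by a promoter that is active in colon epithelium, together with floxed alleles of the tumor suppressor Apc. Per the labels they received 1 intraperitoneal injection of tamoxifen at 25 mg/kg when they were 8 to 10 weeks old; the study's methods give an upper age above that. The control samples of the same series came from healthy wild-type (WT) mice with no agent named in their labels: blood neutrophils (WT_PG, n = 4) and colon epithelial cells (WT_CE, n = 4). Blood neutrophils of the tumor-bearing mice (T_PG, n = 4) were used only for levels. The strain labels of all groups begin with C57Bl6/Sv. Tumor neutrophils had been gated as CD45+ EpCAM- CD11b+ MHCII- Ly6G+ cells with low Ly6C, and epithelial cells as EpCAM+ CD45- cells, so the gate for neutrophils was set against EpCAM protein. Apc transcript was present in all 8 libraries, at 3.56, 1.91, 2.63 and 3 RPKM (reads per kilobase of gene, scaled to library size) in neutrophil replicates 1 to 4 and at 5.97, 6.51, 6.02 and 6.31 RPKM in the epithelial replicates. A gene-level value cannot show the deletion, which removes only a part of the gene.

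Neutrophils are short-lived granulocytes that leave the bone marrow with most of their granule proteins already made, and they carry large amounts of the calcium-binding proteins S100a8 and S100a9, of chemokine and formyl peptide receptors and of enzymes that cut matrix. Colon epithelium is a sheet of absorptive colonocytes and mucus-making goblet cells held together by keratins, cadherins and tight junction proteins. Loss of Apc leaves beta-catenin stable, and epithelial cells without Apc transcribe Wnt target genes such as Axin2, Lgr5 and Nkd1.

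Totals ran from 13944547 to 17980197 counts in the neutrophil libraries and from 19668703 to 33319740 in the epithelial libraries. Mitochondrial transcripts made up 17 to 37.5% of neutrophil counts, highest in replicate 1, and 46.3 to 60.5% of epithelial counts. Genes at 1 RPKM or more numbered 7061 in neutrophil replicate 1 but 4668, 5567 and 5490 in replicates 2 to 4, against 6579 to 8565 in the epithelial libraries. Replicate 1 was the neutrophil library with the most detected genes and replicate 2 the one with the fewest. The titles give 3 of the 4 neutrophil libraries an animal number that an epithelial library also carries. For 1 of these pairs, replicate 4 of both groups, the X-linked RNA Xist stood at 0.0225 RPKM in neutrophils and at 46.8 RPKM in epithelium, a transcript that female and male cells do not share, so the shared number does not show that these libraries came from the same animal. Nothing in the labels says how the samples of a group were separated, and the p-values measure the spread between these libraries only.

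The lineage of each library was first read from 20 epithelial identity genes and 22 neutrophil identity genes. For every gene the RPKM of a library was divided by the mean of the tumor group of its lineage, which is the epithelial libraries for epithelial genes and neutrophil replicates 2 to 4 for neutrophil genes, and the median over the list was taken. The epithelial list stood at 76.3% of tumor epithelium in neutrophil replicate 1. It stood at 16, 15.5 and 5.24% in replicates 2, 3 and 4. Blood neutrophils of both kinds of mice were at or below 0.109%, and the 4 epithelial libraries themselves spread from 61.1 to 167%. On this scale neutrophil replicate 1 lay inside the range of the epithelial libraries, and the other 3 lay below it but far above blood neutrophils. Mitochondrial transcripts took a larger share of the epithelial libraries, and on RPKM rescaled to the counts outside mitochondrial genes the list stood at 56.9, 11.2, 8.65 and 2.95% in neutrophil replicates 1 to 4 and at 85.1, 69.4, 145 and 104% in the epithelial libraries. Replicate 1 then lay below all 4 epithelial libraries, and the order of replicates 1 to 4 was kept. Where single genes are placed within or below the epithelial range in what follows, the RPKM are as deposited. In bulk samples of this kind, fewer cells of a type and less RNA per cell cannot be told apart.

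The neutrophil list moved the other way. It reached 21.1% in neutrophil replicate 1 and 83.1, 102 and 108% in replicates 2 to 4. The epithelial libraries held it at 0.0212 to 0.0896%, so most genes of the neutrophil list were near absent from epithelium. The mean over the list was higher there, at 2.48 to 5.48%, with a single gene at up to 44.4%. Epithelial transcripts were present in all 4 neutrophil libraries. Sets drawn from the healthy mice gave similar levels: 43 genes with at least 10 RPKM in healthy epithelium, at most 0.1 RPKM in healthy blood neutrophils and at least 1 RPKM in every tumor epithelial library stood at 79.4, 18.6, 15.4 and 4.51% in neutrophil replicates 1 to 4. Outside mitochondrial genes this set was at 58.7% in replicate 1 and at 75.2 to 137% in the epithelial libraries. The 99 genes of the opposite pattern, present in neutrophil replicates 2 to 4, stood at 27.4, 87.1, 101 and 111% there and at 0.076 to 0.2% in the epithelial libraries. These sets share members with the lists, among them Epcam, Cdh1 and Hnf4a, and Mmp8, Mmp9 and Fpr1. The similar levels are therefore partly built in.

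**Figure D1:**
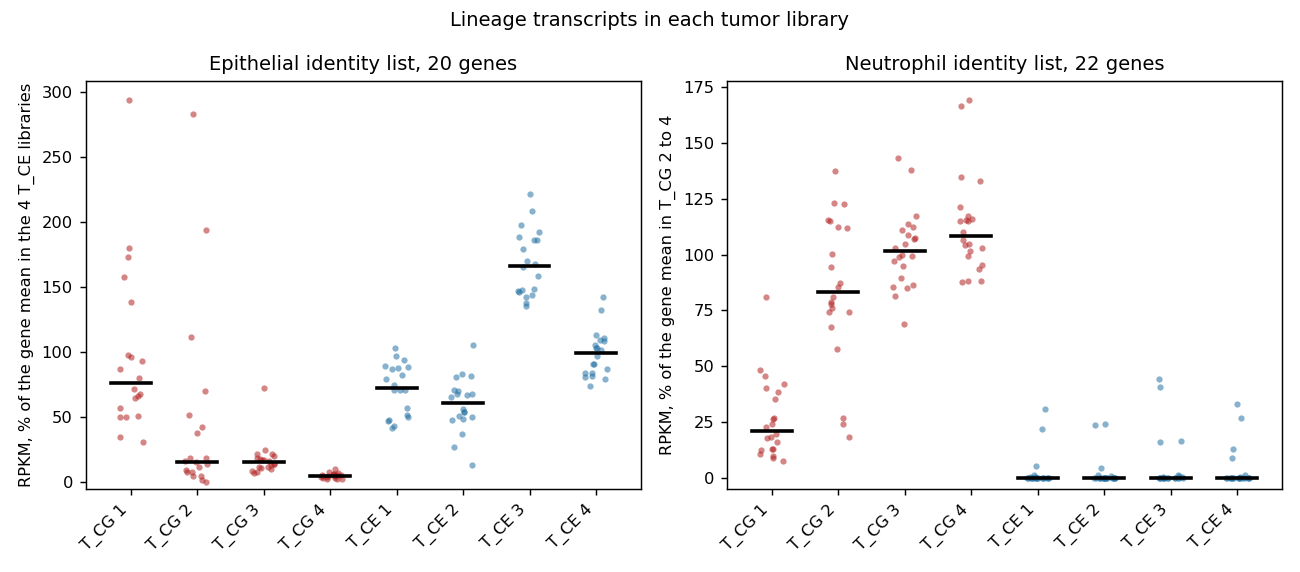
RPKM of each gene of the epithelial list (left, 20 genes) and the neutrophil list (right, 22 genes) in each library, as a percentage of the gene's mean in the 4 epithelial libraries or in neutrophil replicates 2 to 4 (linear axes), 1 point per gene with the median as a bar. The bar of neutrophil replicate 1 lies at 76.3% on the left and 21.1% on the right, and the bars of the epithelial libraries on the right lie at 0.0896% or less.

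Single epithelial genes showed the same order of libraries. Epcam, the adhesion molecule of the epithelial gate, was measured at 33.9, 5.91, 8.94 and 2.6 RPKM in neutrophil replicates 1 to 4 and at 41.9, 34.5, 81 and 46.3 RPKM in epithelial replicates 1 to 4. Cdh1, the cadherin of epithelial junctions, was at 20.9, 3.15, 5.6 and 3.34 RPKM in neutrophils and at 29, 33.4, 56.6 and 44.7 RPKM in epithelium. The groups did not overlap for either gene, but neutrophil replicate 1 came close to the lowest epithelial library. Of the 20 identity genes, 18 had their highest neutrophil value in replicate 1.

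Replicate 2 had a pattern of its own. Cdh17, an intestinal cadherin, was at 7.59, 10.6, 1.18 and 0.261 RPKM in neutrophil replicates 1 to 4, against 1.48 to 10.2 RPKM in epithelium. Cdx1, a homeobox factor of the intestine, was at 0.834, 2.93, 0.15 and 0.0587 RPKM, against 0.496 to 1.71 RPKM. Muc2, the gel-forming mucin of goblet cells, was at 30.4, 18.4, 0.824 and 0.158 RPKM, against 10 to 39.9 RPKM. These 3 genes were high in replicate 2, whereas other epithelial genes were listed at or near 0 in the same library: Cldn3 at 0, Cldn23 at 0, Guca2b at 0 and Agr2 at 0.00146 RPKM. The mean level of the 20 identity genes in replicate 2 was 46.1% where their median was 16%. The epithelial transcripts of replicate 2 were uneven from gene to gene, so the 16% used for this library below describes them only loosely.

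**Figure D2:**
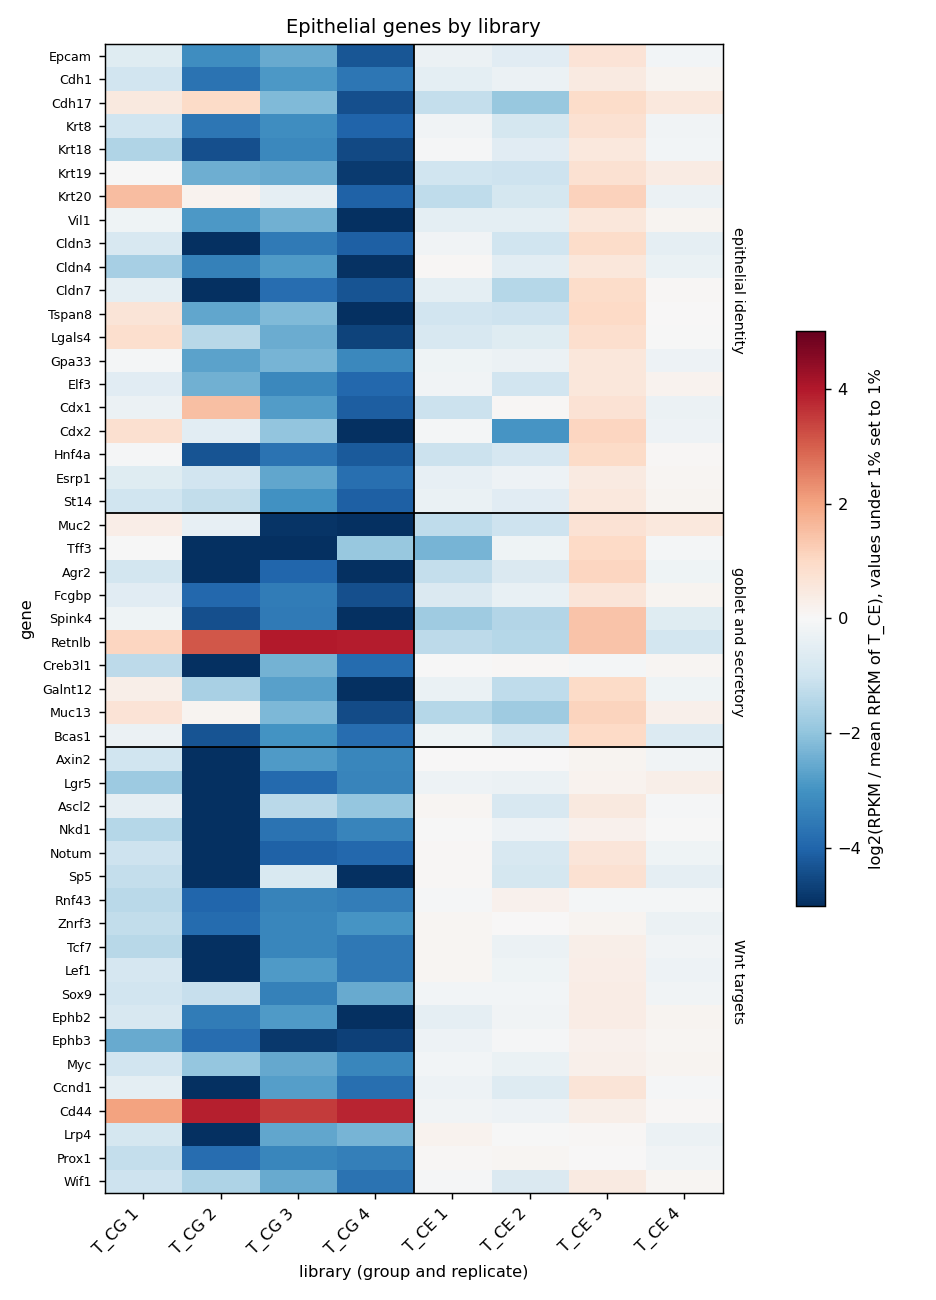
Epithelial list genes with an epithelial mean of at least 0.5 RPKM (vertical axis) in the 4 neutrophil and 4 epithelial libraries (horizontal axis), colored by the log2 ratio of RPKM to the gene's epithelial mean; ratios under 1% are set to 1% and the color scale ends at 5 either way. Neutrophil replicate 1 is the neutrophil library nearest to the epithelial ones for 18 of the 20 identity genes, and replicate 2 mixes genes above 100% with genes near 0.

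A gene was called by edgeR's quasi-likelihood test when its Benjamini-Hochberg adjusted p was under 0.05 and its log2 fold change, neutrophils minus epithelium, was beyond 1.5 in either direction. With all 8 libraries, 2861 of 16327 genes were higher in neutrophils (17.5%) and 342 were higher in epithelium (2.09%). Without neutrophil replicate 1, 3449 of 16909 genes were higher in neutrophils (20.4%) and 2510 were higher in epithelium (14.8%). Of the 2861 neutrophil calls, 2860 were kept without replicate 1, and 516 of the genes tested in both fits were gained. Of the 342 epithelial calls, 335 were kept and 2059 were gained, and 0 genes changed from one side to the other. Most epithelial calls were thus made only when neutrophil replicate 1 was left out, and most neutrophil calls were made with or without it. The counts of called genes in the lists below are to be read beside these shares of all genes. RPKM did not overlap between the groups for 41.5% of the genes tested with all libraries and for 60.6% of those tested without replicate 1.

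In fitted values the neutrophil side held the larger differences. The median log2 fold change of the calls was 3.63 toward neutrophils and -2.35 toward epithelium with all libraries, and 3.50 and -3.09 without replicate 1, where the median of all genes tested was -0.16 and -0.24. Fitted log2 values lay higher than the log2 ratio of mean RPKM. The median gap was 0.97 over 4140 genes with at least 1 RPKM in both groups, and 1.17 over 3614 without replicate 1. A fitted difference is therefore relative to the trimmed-mean scaling of the counts. A shift of this size is large enough to change which side has the larger median. On mean RPKM, 0 of the called genes had the opposite direction in either fit.

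All 22 neutrophil identity genes were called higher in tumor neutrophils in both fits, with a median log2 fold change of 11.83 with all libraries and 12.21 without replicate 1. S100a8, a subunit of calprotectin, was at 385, 3385, 2846 and 2583 RPKM in neutrophil replicates 1 to 4 and at 0.13 to 1.03 RPKM in epithelium. Its log2 fold change was 13.24 ± 1.35 (SE, edgeR adjusted p = 6.6e-05) and 13.64 ± 0.91 without replicate 1 (adjusted p = 1.0e-05). The groups were separated by more than 2 orders of magnitude even with replicate 1. S100a9, its partner, was uneven, at 1328, 1324, 7849 and 7290 RPKM, with replicates 1 and 2 alike. Cxcr2, the receptor for neutrophil chemokines, was at 60.4, 441, 325 and 380 RPKM and at 0.0128 to 0.0593 RPKM in epithelium. Csf3r, the G-CSF receptor, was at 51.6, 192, 182 and 201 RPKM and at 0.0183 to 0.096 RPKM. Ly6g, the antigen of the gate, was at 1.18, 12.6, 9.65 and 11.6 RPKM and at 0.00347 to 0.141 RPKM. Replicate 1 was the lowest library for all of these but S100a9.

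Within the list, Cd177 and Padi4 had the smallest differences. Cd177, a surface protein of a neutrophil subset, was at 2.44, 3.57, 21.7 and 32.7 RPKM in neutrophils and at 5.98, 4.69, 7.86 and 5.15 RPKM in epithelium, so replicates 1 and 2 lay below every epithelial library. It passed the test with log2 2.31 ± 0.73 (SE, edgeR adjusted p = 0.0463) and 2.69 ± 0.49 (adjusted p = 0.00299), although the RPKM of the groups overlapped. Padi4, which citrullinates histones, was at 1.4, 2.58, 4.79 and 3.04 RPKM and at 0.762 to 1.54 RPKM in epithelium, and the groups overlapped only through replicate 1. By contrast, the 16 pan-leukocyte genes, among them Ptprc (CD45), the integrin subunits Itgam and Itgb2 and the transcription factor Spi1 (PU.1), were all called higher in neutrophils in both fits, with median log2 fold changes of 10.05 and 10.38.

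The 8 abundant genes with the largest neutrophil difference without replicate 1 were Stfa2l1, Stfa2, Cxcr2, Il1f9, Stfa3, Gm37347, Acod1 and S100a8, taken from 937 called genes whose average log2 CPM was 6 or more and whose groups did not overlap. The 3 stefins are cysteine protease inhibitors of 1 gene cluster with related sequences, which counting may have shared out. Stfa2l1 was at 41, 406, 608 and 589 RPKM in neutrophils and had at most 3 counts in an epithelial library. Acod1, the enzyme that makes itaconate, was at 277, 1321, 851 and 909 RPKM and at 0.0749 to 0.267 RPKM in epithelium. Il1f9, an IL-1 family cytokine, was at 117, 220, 254 and 285 RPKM and at 0 to 0.0401 RPKM. Gm37347 lies over Il1r2 on the same strand and its counts cannot be told apart from those of that gene. All 8 were also called higher in blood neutrophils than in epithelium of healthy mice.

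Promoters were looked at for the 99 neutrophil genes drawn from healthy mice, a set called in the healthy mice, with the tumor libraries used only to require that a gene was detected. Windows from 250 bases before to 50 bases after the start site, from RefSeq on build GRCm38.p6, matched 68 of them and 28 of the 43 epithelial genes. PU.1 is the myeloid member of the ETS factors, and the string searched for it was GAGGAAGT on either strand. It occurred in 13 of 68 neutrophil promoters (19.1%), in 1 of 28 epithelial promoters (3.57%) and in 887 of all 27025 promoters (3.28%). Its shorter form AGGAAGT, contained in the first, occurred in 41.2, 14.3 and 9.57%. The strings for C/EBP (TTGCGCAA and TTGCATAA), HNF1 (GTTAA), CDX (TTTATNG), HNF4 (CAAAGTCCA) and TCF7L2 (TTTGAA) were searched in the same way. HNF4 is an epithelial factor in the gut, and its string was in 3 of 68 neutrophil promoters (4.41%), in 0 of 28 epithelial promoters and in 0.477% of all promoters. HNF1 was in 20.6, 21.4 and 24.1%, CDX in 11.8, 14.3 and 11.3%, TCF7L2 in 17.6, 14.3 and 18.1%, and the second C/EBP string in 1.47, 0 and 0.792%. The first C/EBP string was in 0 promoters of either set and in 0.185% of all. With 68 and 28 promoters, 1 promoter is worth more than the share of several strings. The following stretches are shown for genes called higher in neutrophils whose values are given here, with the matched string in capitals. The values of Retnla are uncertain, because it shares sequence with Retnlg, as given below. A match is a description of letters and not a binding site.
Ly6g, chr15:75155204-75155260, plus strand: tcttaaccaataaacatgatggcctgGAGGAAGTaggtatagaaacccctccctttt
S100a8, chr3:90668873-90668932, plus strand: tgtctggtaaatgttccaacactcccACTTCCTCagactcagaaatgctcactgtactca
Mmp8, chr9:7558182-7558241, plus strand: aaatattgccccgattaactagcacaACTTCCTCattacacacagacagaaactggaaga
Fcgr4, chr1:171018876-171018925, plus strand: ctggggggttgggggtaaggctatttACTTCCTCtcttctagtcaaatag
Retnla, chr16:48842385-48842444, plus strand: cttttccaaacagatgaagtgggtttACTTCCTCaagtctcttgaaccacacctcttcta
The string starts 31 bases before the start site in Ly6g, 172 in S100a8, 221 in Mmp8, 24 in Fcgr4 and 198 in Retnla. Of these genes, Mmp8, the neutrophil collagenase, was at 16.4, 45.1, 180 and 280 RPKM in neutrophils against 0.0177 to 0.146 RPKM in epithelium, and Fcgr4, an activating IgG receptor, was at 2.71, 18.1, 12 and 14 RPKM against 0.00132 to 0.0925 RPKM. Both had their lowest neutrophil value in replicate 1.

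Of 16 granule genes, 11 passed the filter, 9 were higher in neutrophils in both fits and 0 were higher in epithelium. The azurophil granule genes Mpo, Elane, Prtn3 and Ctsg were at or below 0.0643 RPKM in every library of both groups and were not tested. Among the granule genes that differed, Ngp, a bone marrow granule protein, was at 6.62, 8.74, 49.1 and 66.9 RPKM in neutrophils and at 6.03e-05 to 0.14 RPKM in epithelium. Lcn2, an iron-scavenging lipocalin made by neutrophils and by inflamed epithelium, was at 51.4, 142, 234 and 304 RPKM and at 10.2 to 37.1 RPKM. Replicates 3 and 4 were the higher pair of neutrophil libraries for each of these. Camp (log2 2.64 ± 1.32, SE) and Serpinb1a (log2 -0.43 ± 1.02) did not pass.

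Of 24 cytokine and chemokine genes, 22 were tested; 13 were higher in neutrophils with all libraries, and 14 were higher in neutrophils and 1 in epithelium without replicate 1. Il1b was at 291, 1129, 776 and 627 RPKM in neutrophils and at 0.258 to 1.42 RPKM in epithelium. Cxcl2, a ligand of Cxcr2, was at 336, 906, 753 and 638 RPKM and at 1.14 to 10.1 RPKM. Ccl3, which attracts monocytes and lymphocytes, was at 280, 1501, 299 and 253 RPKM and at 0.0664 to 1.55 RPKM. Replicate 2 was the highest library for these 3 genes. Ccl4 was listed at 0 in 3 epithelial libraries and at 0.0173 RPKM in the other, and at 10.7, 47.8, 22.7 and 12.4 RPKM in neutrophils. Cxcl1 passed only without replicate 1, at log2 2.25 ± 0.61 (SE, edgeR adjusted p = 0.0196). Its RPKM overlapped, at 10.7, 32.6, 12.5 and 12.7 in neutrophils and 5.23, 6.33, 23.6 and 11 in epithelium. Ccl28, a mucosal chemokine, was the only member higher in epithelium, at 0.267, 0.000335, 0.00399 and 0.00257 RPKM in neutrophils and 0.144, 0.084, 0.529 and 0.158 RPKM in epithelium. In replicate 1 it lay within the epithelial range, and in replicates 2 to 4 it lay below every epithelial library. Cxcl5, Cxcl10, Ccl20, Il18, Il33, Il23a and Tnfsf10 did not pass in either fit.

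Of 12 NADPH oxidase genes, 10 were tested and 5 were higher in neutrophils in both fits, against 17.5 and 20.4% of all genes. In epithelium, 0 were higher with all libraries and 2 were higher without replicate 1, near the 14.8% of all genes, and the count was 1 without T_CE replicate 4 as well. Cybb, the catalytic subunit of the phagocyte oxidase, was at 4.85, 1.28, 5.97 and 7.45 RPKM in neutrophils and at 0.123 to 0.602 RPKM in epithelium. Its cytosolic partners Ncf1 and Ncf4 and the GTPase Rac2 were also among the genes higher in neutrophils in both fits. Nox1, the catalytic subunit of the colon epithelium, was at 0.19, 0.00311, 0.00308 and 0.00205 RPKM in neutrophils and at 0.517, 0.214, 0.276 and 0.256 RPKM in epithelium. The Nox1 signal of the neutrophil libraries lay almost wholly in replicate 1. Without that library Nox1 was called higher in epithelium (edgeR adjusted p = 0.00539), and with it the adjusted p was 0.195. Noxa1, the activator of Nox1, was at 0.499, 0, 0 and 0.0725 RPKM in neutrophils and at 0.376 to 1.6 RPKM in epithelium, and it also passed only without replicate 1.

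On the epithelial side, 4 of the 20 identity genes were called higher in epithelium with all libraries and 8 without replicate 1, with median log2 fold changes of -0.90 and -1.57. When replicate 2 was also left out, the count was 16 of 20 and the median was -2.28, in a fit of 2 against 4 libraries where 3697 of 18252 genes (20.3%) were higher in epithelium and 21.5% were higher in neutrophils. The 4 genes that passed with all libraries were Cdh1, Krt8, Krt18 and Cldn4. Krt18, a simple-epithelium keratin, was at 14.1, 1.9, 4.3 and 1.78 RPKM in neutrophils and at 38.9, 27.2, 57.8 and 36.6 RPKM in epithelium. Its log2 fold change was -2.16 ± 0.50 (SE, edgeR adjusted p = 0.0098) with all libraries and -2.74 ± 0.38 (adjusted p = 6.5e-04) without replicate 1. Epcam, Cldn3, Cldn7 and Hnf4a were the 4 gained without replicate 1. Hnf4a, a nuclear receptor of gut epithelium, was at 4.8, 0.25, 0.383 and 0.268 RPKM in neutrophils and at 2.37 to 9.59 RPKM in epithelium, where replicate 1 lay inside the epithelial range and the others below it. Cdx1 had positive fitted values in both fits (1.42 and 1.69) that did not pass, and its value was -2.42 when replicate 2 was left out as well.

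The 21 junction genes had 4 members higher in epithelium with all libraries, 12 without replicate 1 and 19 when replicate 2 was also left out, with medians of -1.41, -2.21 and -2.38. Tjp1, the scaffold ZO-1, was at 7.31, 1.16, 1.41 and 1.14 RPKM in neutrophils and at 15, 16.6, 21.5 and 17.2 RPKM in epithelium (log2 -1.99 ± 0.48, SE, edgeR adjusted p = 0.0117, and -2.62 ± 0.27, adjusted p = 1.0e-04, without replicate 1). The summed level of the list was 118 RPKM in neutrophil replicate 1, 18.5 to 29.8 RPKM in the other neutrophil libraries and 174 to 317 RPKM in epithelium. Of the 21 genes, 0 were called higher in neutrophils in either fit, and Cldn15 had the highest fitted value with all libraries, 0.10, and did not pass.

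Wnt target genes were taken as the tumor side of the epithelial signal. In neutrophil replicate 1, 16 of the 19 lay below the epithelial range, 2 within it and 1 above it. For 13 colonocyte genes the counts were 1 below, 6 within and 6 above. Of 19 genes, 6 were higher in epithelium with all libraries, 12 without replicate 1 and 16 when replicate 2 was also left out, and 1 was higher in neutrophils throughout. Axin2, the feedback scaffold of the pathway, was at 5.94, 0.197, 1.68 and 1.24 RPKM in neutrophils and at 12.2, 12, 13 and 10.5 RPKM in epithelium. Nkd1, a feedback inhibitor, was at 6.53, 0.458, 1.34 and 1.74 RPKM and at 17.1, 14.7, 20.3 and 17.2 RPKM. Lgr5, the stem cell receptor for R-spondin, was at 0.858, 0.00873, 0.202 and 0.308 RPKM and at 2.55, 2.43, 3.42 and 3.65 RPKM. The groups did not overlap for any of the 3, and replicate 1 was the highest and replicate 2 the lowest neutrophil library for each. Axin2 passed only without replicate 1 (log2 -2.56 ± 0.52, SE, edgeR adjusted p = 0.00553, against 0.0535 with it). The member that went against the list name was Cd44, an adhesion receptor for hyaluronan that leukocytes also carry, at 63.2, 229, 177 and 215 RPKM in neutrophils and at 12.9 to 19.2 RPKM in epithelium. Cd44 was also higher in blood neutrophils than in epithelium of healthy mice, at log2 3.77.

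Of 15 goblet cell genes, 13 were tested with all libraries and 14 without replicate 1; 0 and 7 were higher in epithelium, and 1, Retnlb, was higher in neutrophils in both fits. Without replicate 2 as well, 9 were higher in epithelium, and without replicate 1 and T_CE replicate 4, the library with the Xist level, 4 of 11 tested were. In that last fit 8.96% of all genes were higher in epithelium and 18.3% in neutrophils. Agr2, a disulfide isomerase of mucus cells, was at 6.03, 0.00146, 0.724 and 0.205 RPKM in neutrophils and at 4.97 to 23.6 RPKM in epithelium. Atoh1, the factor that sets the secretory fate, was at 0.155 RPKM in replicate 1 and listed at 0 in the other 3 neutrophil libraries, against 0.119 to 0.562 RPKM in epithelium. Against a floor of 3 counts per library it was at least 13.9-fold higher in epithelium than in neutrophil replicates 2 to 4. Both genes lay within the epithelial range in replicate 1.

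Of 15 colonocyte genes, 13 were tested. In epithelium, 1 was higher with all libraries and 4 without replicate 1, and 2 of 12 tested without T_CE replicate 4 as well. Over all genes the shares in these fits were 2.09, 14.8 and 8.96%. Slc9a3, a sodium-proton exchanger, was the gene that passed in both fits. Prdx6, a peroxiredoxin that many cell types make, went the other way, at 4.79, 14.8, 6.96 and 5.36 RPKM in neutrophils and 1.32 to 2.01 RPKM in epithelium. Car1, a colonocyte carbonic anhydrase, was at 18.8, 3.47, 6.73 and 0.289 RPKM in neutrophils and at 0.913, 1.3, 14 and 4.55 RPKM in epithelium, with overlapping groups and no call. Among 15 epithelial defense genes, 5 of 14 tested were higher in neutrophils in both fits (Nos2, Lcn2, Slpi, Saa1 and Saa3), against 17.5 and 20.4% of all genes. Reg3g and Ccl28 were higher in epithelium without replicate 1, a share near the 14.8% of all genes. Lypd8, a protein of the colon mucosa that keeps flagellated bacteria away, had its 2 highest values in neutrophil replicates 1 and 2. It was at 251, 207, 98.3 and 7.97 RPKM in neutrophils and at 28.6, 21.5, 145 and 70.6 RPKM in epithelium. Dmbt1, a mucosal scavenger receptor, was at 30, 31.9, 11.1 and 0.341 RPKM and at 6.65 to 29.6 RPKM. In blood neutrophils against epithelium of healthy mice these 2 genes had log2 values of -13.85 and -13.70, and in the tumor neither passed in either direction.

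The 8 abundant genes with the largest epithelial difference without replicate 1, from 114 that met the same conditions, were Nhsl1, Neb, Mast4, Scd1, Nkd1, Egr2, Krt18 and Arhgef5. Nhsl1, a regulator of cell migration, was at 3.37, 0.00429, 0.331 and 0.407 RPKM in neutrophils and at 5.76, 5, 8.55 and 7.47 RPKM in epithelium. Scd1, the desaturase that makes monounsaturated fatty acids, was at 6.03, 0.0922, 1.11 and 0.914 RPKM and at 6.92 to 16.7 RPKM. Arhgef5, a guanine nucleotide exchange factor, was at 2.83, 0.25, 0.399 and 0.254 RPKM and at 3.46 to 4.78 RPKM. Replicate 1 was the highest of the 4 neutrophil libraries for all 8 genes, which their choice by low values in replicates 2 to 4 favors, and it was the highest for 54.2% of all genes tested. Mast4, Nkd1 and Krt18 were the 3 that also passed with it included. Their largest log2 difference, -3.81 for Nhsl1, was smaller than the median of the neutrophil list.

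The healthy mice gave sets of genes called without the tumor libraries. In them, 4015 of 15430 genes were higher in blood neutrophils (26.0%) and 4541 were higher in colon epithelium (29.4%). Xist was at 6.68 to 34.6 RPKM in the healthy epithelial libraries and at 0.0164 to 4.02 RPKM in the healthy blood neutrophils. These groups were thus not alike in Xist. Of 3321 blood neutrophil genes tested in the tumor, 2041 (61.5%) were higher in tumor neutrophils and 4 were higher in tumor epithelium, with a median log2 fold change of 2.69. Of 4344 colon epithelial genes, 189 (4.35%) were higher in tumor epithelium, 36 were higher in tumor neutrophils and 4119 were in neither. Without replicate 1, 2287 of 3382 blood neutrophil genes (67.6%) were higher in tumor neutrophils, and 1381 of 4376 colon epithelial genes (31.6%) were higher in tumor epithelium. With neutrophil replicate 2 left out as well, those counts were 2584 and 2215. Without T_CE replicate 4, the library with the Xist level, they were 2036 and 850. WT_CE replicate 4 stood apart, with 1550 genes at 1 RPKM or more, and with the sets called without it the counts were 2300 and 1525. The epithelial count moved with the libraries far more than the neutrophil count.

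Replicate 1 was the highest of the 4 neutrophil libraries for 3648 of 4344 colon epithelial genes (84%), against 54.2% of all genes tested. It was the lowest for 46.4% of the 3321 blood neutrophil genes, against 13.5% of all genes. Replicate 2 was the lowest for 65.8% of colon epithelial genes and for 61.9% of all genes, which goes with its low number of detected genes.

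**Figure D3:**
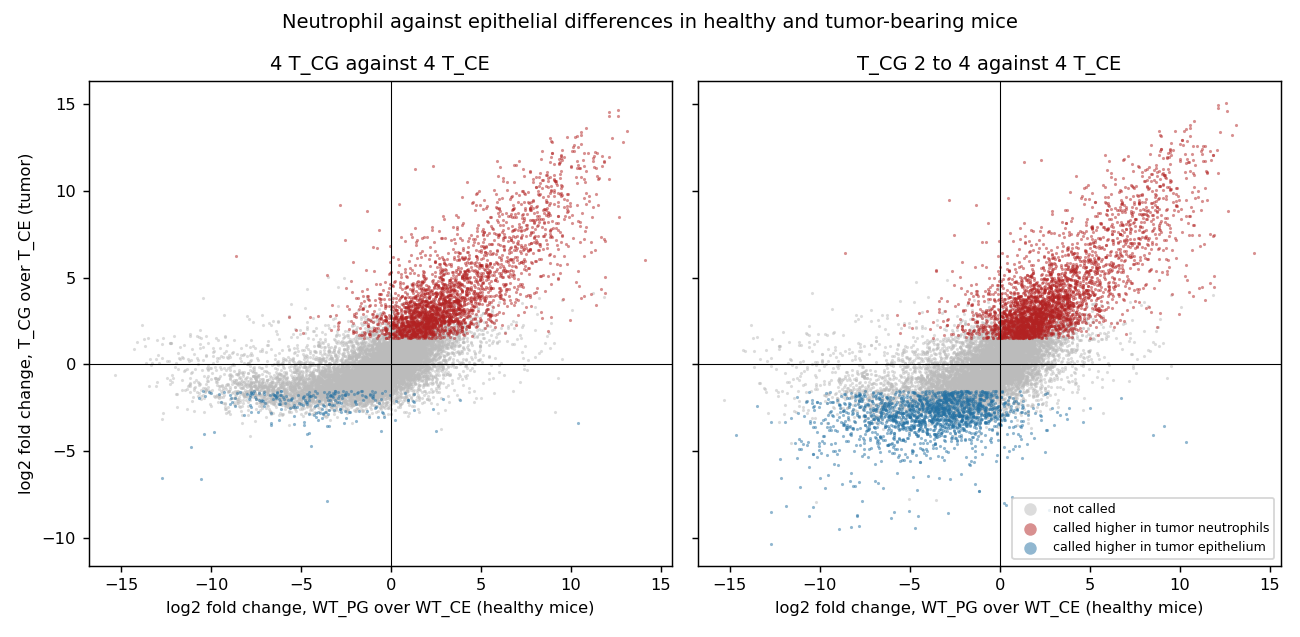
Log2 fold change of each gene in healthy mice (blood neutrophils over colon epithelium, horizontal axis) and in tumors (tumor neutrophils over tumor epithelium, vertical axis), with all libraries on the left and without neutrophil replicate 1 on the right, 1 point per gene colored by its call in the tumor. Without replicate 1, the blood neutrophil genes have a tumor median of 2.94 and the colon epithelial genes one of -1.67, and far more points are called higher in epithelium on the right than on the left.

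The epithelial list also gave a level that each gene would have if only the same share of epithelial transcript were present: the list's median percentage in that library times the gene's epithelial mean. Of 7362 genes with an epithelial mean of at least 1 RPKM, 392 (5.32%) were more than 3 times above this level in neutrophil replicate 1, 2502 (34%) in replicate 2, 3335 (45.3%) in replicate 3 and 5395 (73.3%) in replicate 4. Of the 1037 blood neutrophil genes among them, 238 (23%) were above it in all 4 libraries and 11 (1.06%) were in none. Of the 2505 colon epithelial genes, 10 (0.399%) were above it in all 4 libraries and 1272 (50.8%) were in none, where over all 7362 genes 355 (4.82%) and 1715 (23.3%) were. The counts per library follow the library's own percentage by construction, so their order is no result about the genes. The genes of the epithelial list were themselves called higher in epithelium in healthy mice. The low counts of colon epithelial genes above this level are therefore partly built in. With the mean of the list in place of its median the count in replicate 2 was 1165, and those above in all 4 libraries numbered 238 of all genes, 173 of the blood neutrophil genes and 5 of the colon epithelial genes. Outside mitochondrial genes, where list and gene are rescaled together, the counts were 376, 2475, 3318 and 5327. These counts describe levels and rest on no test. The lists were not alike on this scale. In neutrophil replicates 1 to 4 the median ratio to this level was 0.644, 0.165, 0.899 and 1.8 for Wnt targets. For colonocyte genes it was 2.35, 0.19, 2.88 and 0.803, so 1 share per library does not describe all epithelial genes alike.

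Some genes had opposite calls in healthy mice and in tumors. Of the 36 colon epithelial genes called higher in tumor neutrophils with all libraries, the 5 with the highest level were Cdkn1a, Bhlhe40, Tgoln1, AA467197 and Arf4. Cdkn1a, the cell cycle inhibitor p21, was at 50.4, 90.9, 72 and 57.5 RPKM in tumor neutrophils and at 19.2, 14.6, 32.9 and 26.9 RPKM in tumor epithelium, a log2 value of 2.72 against -4.48 in healthy mice. Bhlhe40, a repressor of the circadian and stress response, was at 44.5, 48.1, 60.7 and 60.9 RPKM and at 20.4, 20.7, 37.1 and 24.6 RPKM. Replicate 1 had no raised value for these genes, and the groups did not overlap. AA467197, which overlaps a microRNA gene on its strand, was at 29.1, 27.4, 62.3 and 57 RPKM and at 0.0955, 0.166, 2.15 and 0.396 RPKM. The tumor minus healthy difference of these 5 genes ran from 2.58 (Arf4, SE 0.50, edgeR adjusted p = 0.00186) to 9.22 (AA467197, SE 0.97, adjusted p = 1.5e-05), but the genes had been chosen for opposite calls. Arf4 overlapped between the groups in RPKM. The fitted tumor log2 values were 2.12 for Bhlhe40 and 1.51 for Arf4, relative to the trimmed-mean scaling of the counts. Fitted values lay above ratios of mean RPKM by a median of 0.97. Calls of this size can therefore depend on that scaling.

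The 4 blood neutrophil genes called higher in tumor epithelium were Itln1, Sntb1, Hist4h4 and Sema4f. Itln1, an intelectin that goblet and Paneth cells secrete, was at 0.858, 0.0267, 0.0202 and 0.211 RPKM in tumor neutrophils and at 1.7, 1.19, 16.3 and 7.17 RPKM in tumor epithelium. Sntb1, a syntrophin of the dystrophin complex, was at 1.8, 0.119, 0.317 and 0.9 RPKM and at 5.85, 5.67, 4.05 and 3.79 RPKM. Replicate 1 was the highest neutrophil library for all 4.

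The 13 genes listed for a part in T-cell suppression were mostly on the neutrophil side: 10 were higher in neutrophils in both fits, against 17.5 and 20.4% of all genes. Without replicate 1, 2 were higher in epithelium, near the 14.8% of all genes. The list was drawn up after the study's own interest and is not independent evidence of its direction. Entpd1 (CD39), which degrades ATP, was at 31.1, 66.5, 88.2 and 96.2 RPKM in neutrophils and at 0.134 to 0.437 RPKM in epithelium. Nt5e (CD73), which turns AMP into adenosine, was at 0.988, 2, 1.67 and 2.55 RPKM and at 0.108 to 0.549 RPKM. Cd274 (PD-L1), the checkpoint ligand, was at 50.3, 99.6, 47.8 and 42.1 RPKM and at 0.136 to 0.704 RPKM. The groups did not overlap for any of these, replicate 1 included. Arg2, the mitochondrial arginase, was at 34.2, 130, 89.1 and 103 RPKM against 0.323 to 0.672 RPKM. Il10, the suppressive cytokine, was at 5.03, 4.75, 7 and 6.98 RPKM against 0.0266 to 0.235 RPKM. Ptgs2 (COX-2), which makes prostaglandins, was at 58.7, 323, 85.2 and 48.5 RPKM against 0.158 to 1.07 RPKM. Il10 had the most even level over the neutrophil libraries and Ptgs2 was highest in replicate 2.

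Nos2 and Arg1 varied widely between neutrophil libraries. Nos2, the inducible nitric oxide synthase, was at 2.12, 0.0593, 7.03 and 8.98 RPKM in neutrophils and at 0.127, 0.252, 0.452 and 0.137 RPKM in epithelium. It was called higher in neutrophils (log2 5.15 ± 1.11, SE, edgeR adjusted p = 0.00629), but replicate 2 lay below every epithelial library. In healthy mice Nos2 was higher in epithelium, at log2 -3.54. Arg1, the cytosolic arginase, was at 2.94, 0.0132, 0.0187 and 0.428 RPKM in neutrophils and at 0.135, 0.0371, 0.717 and 0.512 RPKM in epithelium. Its fitted value was 1.86 ± 1.32 with replicate 1 and -0.07 ± 1.21 without it, and it did not pass in either fit. Arg1 was 11, 0.236, 0.345 and 23.3 times the level set by the epithelial list in replicates 1 to 4.

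The transforming growth factors were divided. Tgfb1 was at 1.3, 0.591, 3.3 and 2.73 RPKM in neutrophils and at 0.478, 0.645, 0.761 and 0.556 RPKM in epithelium, with replicate 2 inside the epithelial range, and it was called higher in neutrophils in both fits. Tgfb2 was 0.596, 0.875, 1.15 and 1.85 times the level set by the epithelial list in neutrophil replicates 1 to 4. Tgfb3 was 0.614, 0.0641, 0.932 and 0.44 times that level. By the mean of the list, the values of replicate 2 were 0.304 for Tgfb2 and 0.0223 for Tgfb3. Both genes stayed below 3 times that level in all 4 neutrophil libraries by either summary, and both were called higher in epithelium only without replicate 1 (Tgfb2 log2 -1.69 ± 0.50, edgeR adjusted p = 0.0265; Tgfb3 -2.98 ± 1.01, adjusted p = 0.0461). Without T_CE replicate 4 neither of them was called.

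**Figure D4:**
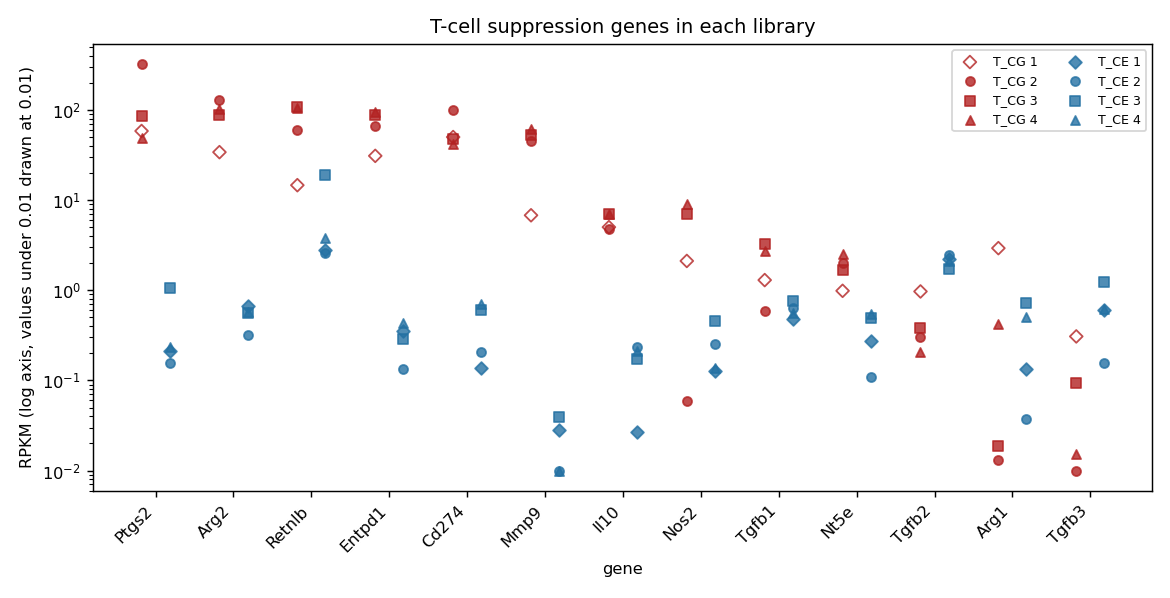
RPKM (log axis, values under 0.01 drawn at 0.01) of the 13 T-cell suppression genes in each of the 4 neutrophil and 4 epithelial libraries, 1 point per library. Entpd1, Cd274, Arg2, Il10 and Mmp9 are apart in all libraries, while Arg1 overlaps and the Tgfb2 values of epithelium lie above those of neutrophils.

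Retnlb was the 1 gene of the goblet list that was higher in tumor neutrophils. It belongs to the resistin-like family of small secreted cysteine-rich proteins, in which Retnlb (RELM-beta) is known from goblet cells and Retnlg (RELM-gamma) from neutrophils and bone marrow. On build GRCm38, with GENCODE M21, Retnlb lies at chr16:48816856-48818892, Retnla at chr16:48842551-48844461 and Retnlg at chr16:48872621-48874496, all on the plus strand and with 4 exons each. The last 180 coding bases of Retnlb and Retnlg are shown because reads of 1 gene could be counted for the other where they match; runs of at least 8 identical bases at the same place are in capitals.
Retnlb, coding bases 136 to 315: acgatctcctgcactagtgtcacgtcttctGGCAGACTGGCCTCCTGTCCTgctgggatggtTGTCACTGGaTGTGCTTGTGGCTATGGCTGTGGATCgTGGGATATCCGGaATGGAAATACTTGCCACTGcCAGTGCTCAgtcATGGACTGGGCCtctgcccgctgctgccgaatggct
Retnlg, coding bases 172 to 351: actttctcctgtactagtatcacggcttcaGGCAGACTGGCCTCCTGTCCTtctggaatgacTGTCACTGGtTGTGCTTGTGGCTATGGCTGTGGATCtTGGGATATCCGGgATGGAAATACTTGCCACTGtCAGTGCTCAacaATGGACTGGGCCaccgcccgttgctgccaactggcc
The coding sequences were identical at 256 of 351 aligned columns (72.9%), and their longest shared run was 26 bases, TGTGCTTGTGGCTATGGCTGTGGATC, with 2 shared windows of 25 bases. How the authors' counting treated reads that match both genes is not given in the sources used here.

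All 4 resistin-like genes were called higher in tumor neutrophils in both fits. Retnlg was at 78.1, 590, 1026 and 1005 RPKM in neutrophils and at 0.491, 0.492, 2.08 and 0.426 RPKM in epithelium. Retnlb was at 14.7, 60.1, 109 and 107 RPKM in neutrophils and at 2.81, 2.63, 19 and 3.78 RPKM in epithelium (log2 4.63 ± 0.85, SE, edgeR adjusted p = 0.00237, and 5.0 ± 0.63, adjusted p = 3.9e-04, without replicate 1). Replicate 1 lay within the epithelial range for Retnlb only. Retnla was at 19.3, 181, 267 and 270 RPKM and at 0.0162 to 0.108 RPKM in epithelium. Retnla shares more sequence with Retnlg than Retnlb does, with 24 shared windows of 25 bases and a longest run of 42 coding bases, and its counts were 24.3, 30.2, 25.6 and 26.4% of those of Retnlg in neutrophil replicates 1 to 4. Values of all 3 genes are uncertain where reads match more than 1 of them.

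The ratio of the first 2 genes separated the cell types. Retnlb was 10.1 to 10.9% of Retnlg in RPKM over the 8 blood neutrophil libraries of tumor-bearing and healthy mice (11.6 to 12.4% in counts), 534 to 914% over the tumor epithelial libraries and 663 to 1064% over the healthy epithelial libraries. In tumor neutrophil replicates 1 to 4 the counts of Retnlb were 21.5, 11.6, 12.1 and 12.1% of those of Retnlg. Replicates 2 to 4 thus had the ratio of blood neutrophils and replicate 1 had a ratio between the 2 cell types. Retnlg times the blood ratio gave 8.21, 62, 108 and 106 RPKM of Retnlb, and the level set by the epithelial list gave 5.39, 1.13, 1.09 and 0.37 RPKM. The sums, 13.6, 63.2, 109 and 106 RPKM, lay close to the 14.7, 60.1, 109 and 107 RPKM measured. By the mean of the list the epithelial part of replicate 2 was 3.26 RPKM. In counts, Retnlg was 8.23 to 13.3% of Retnlb over the healthy epithelial libraries and 9.56 to 16.1% over the tumor epithelial libraries. Over the 8 blood neutrophil libraries, Retnla was 25.6 to 29.5% of Retnlg. Whether the constant ratio in neutrophils is Retnlb transcript or Retnlg reads counted for Retnlb was not tested. The same holds for these other shares. The study's cytokine array lists RELM-beta among the proteins that differed in T-cell cultures holding tumor neutrophils, against cultures with tumor monocytes. That array measured protein and not transcript.

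**Figure D5:**
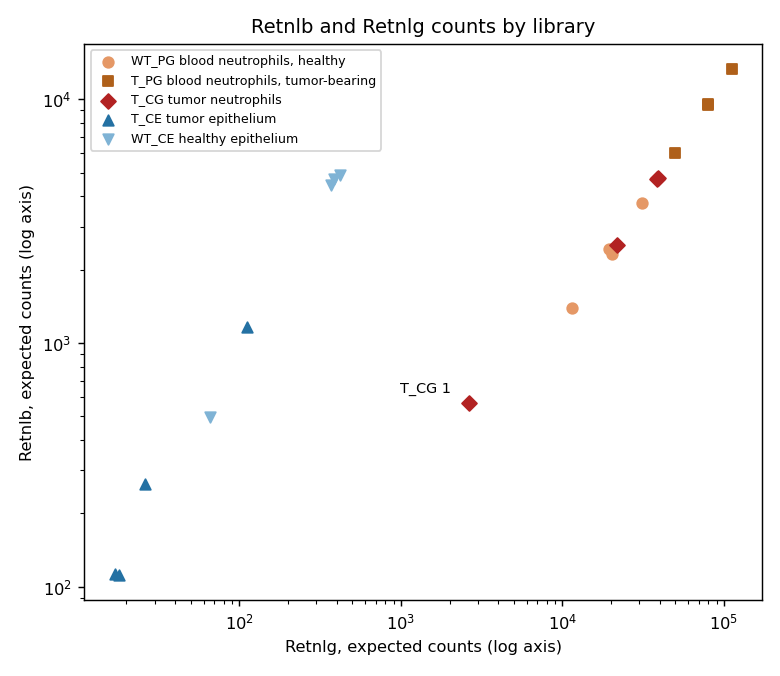
Counts of Retnlg (horizontal axis) and Retnlb (vertical axis) in each library, both on log axes, with neutrophil and epithelial groups marked. Blood neutrophils and tumor neutrophil replicates 2 to 4 lie on 1 line at 11.6 to 12.4%, the epithelial libraries lie at 622% or more, and neutrophil replicate 1 lies between them at 21.5%.

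The lysozymes were a second pair of this kind. Lyz2, the lysozyme of myeloid cells, was at 65, 126, 202 and 273 RPKM in neutrophils and at 17.9, 16.8, 123 and 48.2 RPKM in epithelium, with replicate 1 inside the epithelial range, and it was called higher in neutrophils in both fits. Lyz1, the lysozyme of Paneth cells, was 91.4 to 94.9% of Lyz2 in tumor neutrophils and 102 to 105% in tumor epithelium. Their coding sequences were identical at 422 of 444 columns (95%) and shared 189 of 420 windows of 25 bases, so values of the 2 genes are uncertain.

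Markers of other cells were low beside those of neutrophils. Of 15 monocyte and macrophage genes, 13 were tested and 8 were higher in tumor neutrophils in both fits, with a summed level of 34.5 to 51.1 RPKM in tumor neutrophils, 4.25 to 15.9 RPKM in tumor epithelium and 297 to 628 RPKM in tumor monocytes (T_CC). Csf1r, the receptor for M-CSF, was at 7.29, 3.99, 14.2 and 16.4 RPKM in neutrophils, whereas the monocyte chemokine receptor Ccr2 was at 0.00563 to 0.491 RPKM and Ms4a7 at 0 to 0.082 RPKM. Among 13 monocyte and macrophage genes with a mean of at least 0.1 RPKM, replicate 1 was the highest neutrophil library for 9 and the lowest for 1. Over all genes tested it was the highest for 54.2%. Of 10 fibroblast genes, 9 were tested and 6 were higher in neutrophils, at summed levels of 3.25 to 8.24 RPKM against 1.29 to 4.82 RPKM in epithelium; Col1a1, a fibrillar collagen, reached 2.8 RPKM in replicate 2. Of 14 lymphocyte genes 2 were tested, with summed levels of 0.981 to 2.88 RPKM, and the cytotoxic cell gene Nkg7 was at 0 in all 4 neutrophil libraries. Of 10 eosinophil, basophil and mast cell genes, Siglecf and Ccr3 were higher in neutrophils, while the eosinophil granule genes Epx and Prg2 were at or below 0.0226 RPKM. Of 8 endothelial genes 6 were tested and 1, Pecam1, which leukocytes also carry, was higher in neutrophils. The summed levels were 0.44 to 5.18 RPKM in neutrophils and 4.61 to 5.01 RPKM in epithelium. For the 5 endothelial genes with a mean of at least 0.1 RPKM, replicate 1 was the highest neutrophil library each time.

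Red cell transcripts also stood out in replicate 1. The 10 erythroid and platelet genes summed to 131 RPKM there, to 27.2, 11.8 and 6.32 RPKM in neutrophil replicates 2 to 4 and to 26.4 to 74.2 RPKM in epithelium. The beta globin Hbb-bs was at 44.5, 5.24, 2.87 and 1.67 RPKM in neutrophils, and its near copy Hbb-bt followed it. Of 12 genes known to be induced when tissue is dissociated, 4 were higher in neutrophils in both fits: Junb, Ier3, Dusp1 and Zfp36. Fos, Egr1 and Atf3 did not pass, and their part in the other differences was not tested.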

How the data were processed

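Total RNA (PicoPure) of cells sorted by flow cytometry was amplified to double-stranded cDNA (NuGEN Ovation) before library preparation (TruSeq Nano); the labels name the molecule polyA RNA, and the study's methods state no polyA selection. Per the submitters' processing notes, bcl2fastq, Bowtie2 and limma were used with genome mm10; the aligner's version, the use of strand and the treatment of reads matching several genes are not given in the sources used here. The authors deposited expected counts per gene (99.6% of values above 0 are not whole) and RPKM per gene; the depth is the total count. Expected counts were rounded to whole numbers and fitted with edgeR 4.0.16 (R 4.3.3; filterByExpr, TMM, robust quasi-likelihood test), called at a Benjamini-Hochberg adjusted p under 0.05 and a log2 fold change beyond 1.5 either way. RPKM served for levels only. Lower bounds of folds use a floor of 3 counts per library; counting error only is covered.

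The members and lists were chosen with earlier results of these data known. The 20 lists hold 271 genes. Genes named are the most abundant of each list, those against its name or changed by leaving out T_CG replicate 1, the 8 largest differences per direction among non-overlapping genes whose average log2 CPM was 6 or more, and the 5 most abundant with opposite healthy calls. The tumor minus healthy difference is an edgeR interaction over 16 libraries, added after seeing the data, as were the class counts without WT_CE replicate 4, T_CG replicate 2 or T_CE replicate 4. The code was tested on simulated counts. Replicate numbers did not pair the samples. Alternatives used limma 3.58.1 and DESeq2 1.42.0. Sequences came from GENCODE M21 and RefSeq (GRCm38.p6), read with Python 3.11.15 and Biopython 1.88.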

Additional observations from a re-analysis of the deposited data

Results flagged for a closer look

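In a test for 1 library standing apart from the others of its group of 4, 10 of 96 groups were marked, where chance marks about 1 in 20. The marks are not independent, since the identity and junction lists hold the same epithelial signal. Neutrophil replicate 1 had also been set apart before this test, so its marks are no separate evidence. Neutrophil replicate 1 stood apart by the epithelial identity level (76.3%), by the summed RPKM of the junction genes (118) and of the erythroid and platelet genes (131), and by Nhsl1 (3.37 RPKM) and Arhgef5 (2.83 RPKM), both of them picked for low values in the other 3 libraries. Neutrophil replicate 2 stood apart by Gm37347 (109 RPKM). Epithelial replicate 4 stood apart by Xist (46.8 RPKM). Epithelial replicate 3 stood apart by the summed RPKM of the T-cell suppression genes (27.1) and of the resistin-like family (21.2), and by AA467197 (2.15 RPKM).

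The neutrophil minus epithelium log2 difference of 9 genes differed between tumor and healthy mice in edgeR's interaction test, after they had been picked for opposite calls. The difference, tumor minus healthy, was 6.73 for Cdkn1a (adjusted p = 2.8e-06), 3.41 for Bhlhe40 (1.8e-04), 4.64 for Tgoln1 (3.3e-05), 9.22 for AA467197 (1.5e-05) and 2.58 for Arf4 (0.00186). It was -6.73 for Itln1 (0.00168), -6.29 for Sntb1 (1.6e-04), -5.26 for Hist4h4 (0.00111) and -14.26 for Sema4f (1.7e-04). The healthy neutrophils came from blood and the tumor neutrophils from tissue, so tumor and tissue cannot be told apart in these differences. Xist differed as well, at 34.6, 15.2, 27.6 and 6.68 RPKM in WT_CE replicates 1 to 4. It was at 0.0204, 0.0194, 0.0413 and 46.8 RPKM in T_CE replicates 1 to 4. It was at 0.0164 to 4.02 RPKM in WT_PG and at 0.0176 to 0.0345 RPKM in T_CG. A difference in sex between the groups cannot be told apart from these differences either. Without neutrophil replicate 1 all 9 kept their direction, with values from 2.80 for Arf4 to 9.44 for AA467197 and from -5.95 for Hist4h4 to -15.43 for Sema4f.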

How the results depend on the processing

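Counts of genes higher in epithelium depended on the processing, and those higher in neutrophils less so. With all 8 libraries (2861 neutrophil and 342 epithelial calls), the epithelial count was 1786 by limma-voom, 1747 by DESeq2, 523 with RLE size factors and 747 as a contrast over all tumor libraries. Both counts moved with at least 10 counts in every library (1542 and 781), limma on log2(RPKM + 1) (1004 and 687) and log2(RPKM + 0.1) (1787 and 4352). Leaving out 1 library gave 2261 to 3449 neutrophil calls and 106 to 2510 epithelial calls: 2510 without neutrophil replicate 1, 854 without neutrophil replicate 2 and 106 to 127 without any other. The share of calls higher in neutrophils was 89.3% at first and 29.1 to 66.4% by limma-voom, DESeq2, the count minimum and both RPKM fits; the cause was not tested.

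Without replicate 1 (3449 and 2510), the epithelial count was 4003 by limma-voom and 4092 by DESeq2. Both moved with the count minimum (1689 and 1505), log2(RPKM + 1) (1135 and 1122) and log2(RPKM + 0.1) (1965 and 5925). Leaving out 1 more library gave 2901 to 3928 and 1416 to 3697. With the replicate number as a block the counts were 2172 and 420; the numbers share no deviations (correlations of -0.04 to -0.00 in tumors). With all libraries the block gave 2176 and 230. The share of neutrophil calls was 57.9%, 83.8% with the block and 24.9% on log2(RPKM + 0.1). The healthy comparison (4015 and 4541) moved with the count minimum (1522 and 1842) and log2(RPKM + 1) (1663 and 997), and leaving out 1 library gave 4029 to 4344 and 4385 to 5223.

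Without replicate 1, with the number in the library titles as a block, Cdh17 was -2.83, Cdx1 -2.58, Gp1bb -7.07, Guca2a -4.18 and Muc13 -2.87, from positive values. That block draws the difference only from title numbers that both groups carry, here those of replicates 3 and 4. Neutrophil replicate 2 has no such partner and adds nothing to the difference. Leaving out 1 more library gave Cdx1 from -2.42 to 1.90, Cx3cr1 from -2.72 to 0.65, Gp1bb from -7.37 to 0.32 and Guca2a from -3.66 to 0.73, the lowest each time without neutrophil replicate 2, and Duoxa2 from -5.11, without neutrophil replicate 3, to 0.68. None of these genes was called at first. Beyond that, the cause of these changes was not tested. Depth limits calls of genes near the floor of 3 counts. Of the genes called in a comparison and named here, 0 changed direction under an alternative. The epithelial list level fell outside mitochondrial genes (to 56.9, 11.2, 8.65 and 2.95%) and was 46.1% in place of 16% in replicate 2 by the mean over genes.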
